A study of Mus musculus with 6 samples.

Results

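The transcripts of the mitochondrial protein import machinery were compared between young adult and old adult mouse cortex. Members were the rows whose symbol begins with Tomm or Timm followed by a number, together with Samm50, the metaxins Mtx1, Mtx2 and Mtx3, Pam16, Dnajc19, Grpel1, Hspa9, Hspd1, Hspe1, Pmpca and Pmpcb. Processed pseudogene symbols were dropped, which removed 1 row. This gave 39 rows with 38 different symbols among 55421 rows in all.

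The samples were cerebral cortices of wild-type male C57BL/6J mice, 3 of 6 months (mice 10, 11 and 17) and 3 of 24 months (mice 2, 4 and 5), all on the same standard diet and all killed under isoflurane anesthesia. Each frozen cortex was powdered and 10 ng of its total RNA entered a low-input library, so every value is a mean over all cell types of the cortex. The study used the comparison to ask how mRNA expression differs between young adults and old adults. Fold changes are 24 over 6 months, on the log2 scale.

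Nearly all mitochondrial proteins are encoded in the nucleus, made in the cytosol and carried into the organelle as unfolded chains. The TOM complex receives them at the outer membrane, the SAM complex places barrel-shaped proteins into that membrane, and the small TIM chaperones carry hydrophobic proteins across the space between the membranes. In the inner membrane, TIM22 inserts carrier proteins and TIM23 passes on proteins that bear a presequence. The PAM motor, built around the Hsp70 protein of Hspa9, pulls these into the matrix, the peptidase MPP removes the presequence, and the chaperonin of Hspd1 and Hspe1 folds the chains. Neurons need much mitochondrial ATP for synaptic transmission, and loss of function of several import genes causes neurological disease.

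The libraries held 29495379 to 36494240 counts, and members took 0.235% to 0.252% of them at 6 months and 0.234% to 0.240% at 24 months, with overlap between the ages. At least 1 count was found on 33974 to 35651 genes at 6 months and on 40208 to 43561 genes at 24 months, most in mouse 2, and the part of this library difference in the values below was not tested. Counts were scaled with TMM, an edgeR method that sets libraries to a common level from the bulk of genes, and are given as CPM. The TMM factors were 0.921 to 0.946 at 6 months and 1.04 to 1.10 at 24 months. Under TMM, the 15761 genes above 1 CPM had a median log2 fold change of -0.14, which became 0.05 when only library totals were used. Values relative to the median of genes above 1 CPM are therefore given for the members that fell. Markers of cortical neurons were abundant in all mice, and their 9 genes summed to 11368 to 12622 CPM at 6 months and to 8459 to 10782 CPM at 24 months. The 7 oligodendrocyte markers summed to 1274 CPM in the 24-month mouse 2 and to 2405 to 4097 CPM in the other mice. In whole cortex, fewer cells of a type and less RNA per cell cannot be told apart.

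TPM values, which the authors deposited and which are corrected for exonic length and library size, were used to compare levels between genes. Members summed to 3113 to 3296 TPM at 6 months and to 2912 to 2974 TPM at 24 months, so that the ages did not overlap on this scale, unlike the share of counts. The most abundant member at both ages was Timm8b, a small TIM subunit, at 649 ± 5.05 TPM (SD, n = 3) at 6 months and 589 ± 20.6 TPM at 24 months. Hspd1 followed with 264 ± 27.8 and 198 ± 6.33 TPM. Tomm20, the receptor that first binds presequences, was at 207 ± 14.3 and 194 ± 8.51 TPM, close to Timm13 at 188 ± 6.92 and 181 ± 7.53 TPM. At 24 months the ranges of Hspd1 and Tomm20 overlapped, so their order was not resolved. The rank of Timm8b, with 518 exonic bases, holds for TPM only. In CPM, which are not corrected for length, it was at 95.6 at 6 months, under Tomm20 at 289. Of its exonic bases, 15.6% overlap Nkapd1 on the opposite strand, so its level is uncertain to that extent. Other genes were grouped with TOM by their symbol. Of these, Tomm5, Tomm7, Tomm22, Tomm34, Tomm40 and Tomm70a lay at 67.1 to 132 TPM on average, and Tomm6 and Tomm40l at 11.1 to 14.5 TPM. At the low end stood Timm8a1, with 3.04 ± 0.496 TPM at 6 months and 2.71 ± 0.238 TPM at 24 months.

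**Figure D1:**
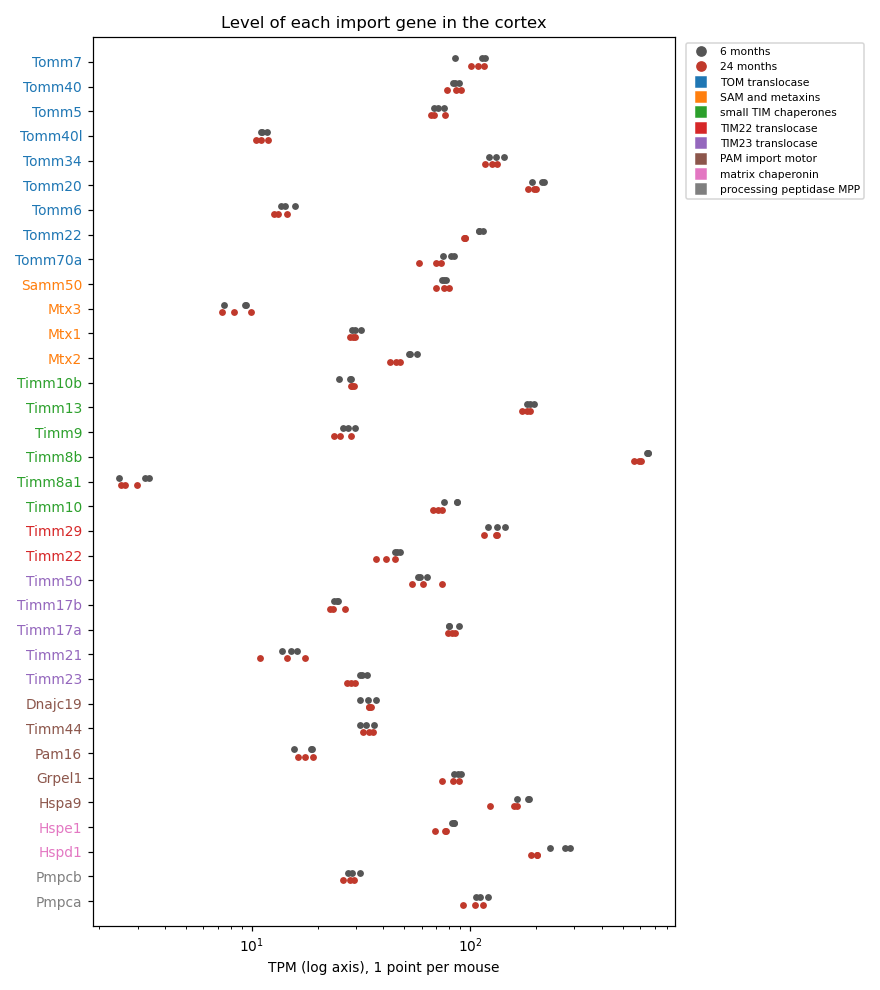
TPM of 35 import genes with a mean of at least 1 TPM, on a log axis, with 1 point per mouse (grey, 6 months; red, 24 months) and gene names coloured by complex. Timm8b is at the top of the scale and Timm8a1 at the bottom at both ages, and the age groups overlapped for most genes.

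Of the 39 rows, 38 had at least 10 counts over the 6 libraries and were tested, and 36 were above 1 CPM. At the 1% false discovery rate (FDR) used in the study, 0 of 38 members passed the quasi-likelihood test of edgeR in either direction, and 0.0% of all 32905 genes tested did. The paper does report differentially expressed genes at 1% FDR, most of them higher at 24 months. It used edgeR after filtering with genefilter and does not state which edgeR test was run. The part of these choices in the difference was not tested. The unadjusted p was under 0.05 for 11 members, all lower at 24 months (28.9% of members), beside 13.1% of all genes tested that were lower and 17.6% that were higher, and beside 26.9% lower of those above 1 CPM. At 1% FDR the likelihood ratio test and the exact test of edgeR each called 1 member lower, which was Hspd1, and DESeq2 called 0. No member was called higher by these tests. Of all genes, they called 0.766%, 0.574% and 0.423% lower and 4.41%, 2.84% and 0.412% higher, in that order. At 10% FDR, the threshold behind the words rose and fell here, 8 members fell and 0 rose, while 8.33% of all genes fell and 10.0% rose. These were 22.2% of the members above 1 CPM, beside 17.3% of all genes above 1 CPM that fell and 2.43% that rose, so that the share among members was near that of other expressed genes. The 8 were Hspd1, Tomm22, Mtx2, Tomm70a, Hspa9, Timm10, Timm8b and Hspe1.

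The number of calls changed with the libraries entered. At 10% FDR, 0 members were called without mouse 10, without mouse 11, without mouse 2 or without mouse 4, 3 without mouse 17 and 9 without mouse 5. The count over all genes went from 6040 to 0, 1, 176, 0, 2476 and 7998 in the same fits. With library totals in place of TMM, 1 member was called lower (Hspd1), and 0.966% of all genes were.

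The matrix chaperonin had the lowest median of the roles, and its gene Hspd1 the largest difference among members above 1 CPM. Hspd1, which encodes the Hsp60 subunit of the folding chamber, lies at chr1:55077835-55088243 on the minus strand (GRCm38), and Hspe1, which encodes its Hsp10 lid, lies beside it at chr1:55088132-55091307 on the plus strand. Hspd1 was at 205, 215 and 175 CPM in the 6-month mice 10, 11 and 17 and at 133, 140 and 140 CPM in the 24-month mice 2, 4 and 5. All old mice were below all young mice, and the young mice were spread more widely than the old. Hspd1 fell by 30.5%, a log2 fold change of -0.52 (SE 0.10, adjusted p = 0.052), or -0.38 relative to the median of genes above 1 CPM. With library totals only, the value was -0.33 (adjusted p = 0.077). Leaving out 1 mouse at a time gave -0.61 to -0.43, with adjusted p up to 0.17.

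Hspe1 was at 35.8, 34.6 and 35.2 CPM at 6 months and at 29.9, 26.7 and 29.8 CPM at 24 months. Again the ages did not overlap, here with a small spread among the young mice. It fell by 18.1% (log2 fold change -0.29, SE 0.10, adjusted p = 0.092), which was -0.14 relative to expressed genes, and with library totals only the value was -0.10 (adjusted p = 0.54). The TPM ratio of Hspd1 to Hspe1 was 3.13 at 6 months and 2.67 at 24 months (geometric means), and the ages overlapped (exact permutation test, two-sided, p = 0.2). The sequences of both genes are in part shared with other genes. Of the 69-base words of their transcripts, 33.3% for Hspd1 and 16% for Hspe1 also occur in transcripts of other genes, among them pseudogenes. Whether reads from such words were counted or dropped was not tested, so the levels of both genes are uncertain to that extent.

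Hspd1 and Hspe1 are transcribed away from each other, and their first exons overlap. The genes of heat shock proteins are known to be activated through the heat shock element, and the letters of this element near their starts are shown because Hspd1 had the largest difference. Promoters of 300 bases (250 before to 50 after the start, RefSeq, GRCm38.p6) were searched on both strands for TTCNNGAA and GAANNTTC, which are the same on either strand. The capitals mark 3 overlapping matches, 89 to 72 bases before the start of Hspe1, at chr1:55088053-55088082 on the plus strand, in a stretch that also overlaps an annotated first exon of Hspd1. The table holds 2 promoters of Hspd1, of which 1 contains these 3 matches and the other has 0.
Hspe1 and Hspd1: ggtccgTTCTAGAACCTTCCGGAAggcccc

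Of the 33 member symbols with a promoter in the table, 8 held such a match (24.2%), beside 14.0% of genes above 1 CPM and 17.0% of all genes. They were Hspd1, Hspe1, Timm9, Timm10, Timm13, Timm8a2, Tomm20 and Tomm22. Of the 7 members that fell and had a promoter, 4 were among them. The share over all genes that fell was not computed for this motif or the next ones. Counts among the members that fell therefore have no comparison. Hspd1 and Hspe1 hold the same stretch and are counted separately, and Timm8a2 had at most 3 counts in any mouse. The ETS motif CCGGAAGT was in 9 promoters (27.3%), beside 8.34% of genes above 1 CPM, and was in those of Mtx2, Timm10 and Tomm70a among the members that fell. The motif of NRF1, a factor of many mitochondrial genes, was in 4 (12.1%, beside 10.6% of genes above 1 CPM), Hspd1 and Timm8b among them. The next stretches show single matches in 4 further members that fell, with the heat shock letters in capitals for Tomm22 (chr15:79670811-79670840) and Timm10 (chr2:84827024-84827053) and the ETS letters in capitals for Tomm70a (chr16:57121623-57121652) and Mtx2 (chr2:74825776-74825805), all on the plus strand. In Timm10 the ETS letters overlap the heat shock letters, and that stretch lies after the start.
Tomm22: gcccggctcgcTTCCGGAAgacgctctgtc
Timm10: gctagacttccTTCCGGAAgtgacccacgt
Tomm70a: gccttctgaccCCGGAAGTggttctcccct
Mtx2: gggcggagcagCCGGAAGTgccggcgcgcg
A match is a description of the letters only. Hspa9, Timm21, Tomm40l and Tomm7 had no entry, and Tomm6os was not searched.

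Among the TOM genes, 2 of 10 fell. The share to set beside this count and the counts by complex below is the 17.3% of genes above 1 CPM that fell. Both of these TOM genes encode receptors, but Tomm20, also a receptor, did not pass the test. Tomm22 (chr15:79670861-79673400, plus strand), the central receptor that joins the pores, was at 52.1, 51.2 and 53.5 CPM at 6 months and at 40.7, 41.3 and 41.2 CPM at 24 months. Within each age the mice were close together, and the groups stood well apart. It fell by 21.5% (log2 fold change -0.35, SE 0.09, adjusted p = 0.057), or -0.21 relative to expressed genes. Tomm70a (chr16:57121703-57156705, plus strand) encodes the receptor that docks cytosolic Hsp70 and Hsp90 with their cargo. It was at 237, 227 and 208 CPM at 6 months and at 149, 179 and 189 CPM at 24 months. The ages did not overlap, and mouse 2 was the lowest. It fell by 23.0% (log2 fold change -0.38, SE 0.11, adjusted p = 0.067), or -0.23 relative to expressed genes, and without mouse 2 the value was -0.27. These are mRNA values. By targeted mass spectrometry of cortex proteins (n = 2 per age), the paper lists Tomm70a among the peptides with a strong increase at 24 months, the opposite direction. The paper describes the mRNA of genes with differentially enriched proteins as stable between these ages. With library totals only, Tomm22 was at -0.16 (adjusted p = 0.27) and Tomm70a at -0.19 (adjusted p = 0.23).

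The other TOM genes above 1 CPM did not pass the test. Tomm20 was at 306, 296 and 266 CPM at 6 months and at 238, 252 and 260 CPM at 24 months, which left a narrow gap between the ages (log2 fold change -0.21, SE 0.09, adjusted p = 0.15). Tomm7, a small subunit that tunes the assembly of the complex, was at 36.4, 37.3 and 27.2 CPM and at 32.0, 29.9 and 34.3 CPM. Its young mouse 17 was below all old mice, and the fitted value of -0.07 (SE 0.13) turned to 0.12 with library totals only. The pore gene Tomm40 had a log2 fold change of -0.13 (SE 0.09), the same as Tomm5 (-0.13) and close to Tomm40l (-0.14), and Tomm34 and Tomm6 had -0.19 and -0.23. All of these lay within 0.09 of the median of expressed genes. Tomm6 shares 68.5% of its words with other transcripts and Tomm40l overlaps Nr1i3 on the opposite strand, so both are uncertain. Tomm20l, a relative of Tomm20, had 4, 1 and 4 counts at 6 months and 4, 7 and 6 counts at 24 months, which were too few to compare.

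In the SAM complex, 1 of 4 genes fell. Mtx2 (chr2:74825803-74878431, plus strand), a metaxin on the cytosolic face of the complex, was at 60.1, 54.6 and 55.3 CPM at 6 months and at 41.2, 46.0 and 44.3 CPM at 24 months. All old mice were lower, mouse 2 the most. It fell by 22.7% (log2 fold change -0.37, SE 0.10, adjusted p = 0.059), or -0.23 relative to expressed genes, and library totals only gave -0.18 (adjusted p = 0.22). Samm50, the barrel-inserting core, had -0.12 (SE 0.09, adjusted p = 0.36), Mtx1 had -0.17 (SE 0.10) and Mtx3 had -0.14 (SE 0.15), within 0.03 of the median of expressed genes.

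The small TIM chaperones had 2 members that fell among 6 tested. Timm10 (chr2:84826997-84830213, plus strand), which forms a ring with Timm9, was at 17.7, 20.0 and 20.2 CPM at 6 months and at 15.8, 14.5 and 15.3 CPM at 24 months. The ages did not overlap, and young mouse 10 was nearest to the old mice. It fell by 21.2% (log2 fold change -0.34, SE 0.11, adjusted p = 0.083), or -0.20 relative to expressed genes. Its partner Timm9 had -0.21 (SE 0.11, adjusted p = 0.21). Timm8b (chr9:50603910-50605320, plus strand), the partner of Timm13, was at 95.4, 95.2 and 96.1 CPM at 6 months and at 82.5, 77.1 and 80.8 CPM at 24 months. The young mice were nearly equal, and all old mice were lower. It fell by 16.2% (log2 fold change -0.25, SE 0.08, adjusted p = 0.086), which was -0.11 relative to expressed genes. Timm13 had -0.17 (SE 0.09, adjusted p = 0.21). With library totals only, Timm10 was at -0.15 (adjusted p = 0.40) and Timm8b at -0.06 (adjusted p = 0.65).

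The remaining small TIM genes did not pass. Timm10b, which attaches the small chaperones to TIM22, was at 28.97, 25.4 and 28.8 CPM at 6 months and at 27.1, 26.9 and 27.6 CPM at 24 months. The old mice lay within the range of the young, and the fitted value of -0.03 (SE 0.10) turned to 0.17 with library totals only. Timm8a1, the X-linked gene whose human counterpart is lost in a deafness and dystonia syndrome, had -0.28 (SE 0.23, adjusted p = 0.42) and shares 40.2% of its words with other transcripts. Its relative Timm8a2 had 0, 1 and 1 counts at 6 months and 3, 2 and 2 counts at 24 months and was not tested. A second row named Timm10b, a readthrough model that shares 86.0% of its exonic bases with Dnhd1, had 5, 6 and 3 against 4, 5 and 9 counts.

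No gene of the inner membrane channels passed the test. Timm22, the carrier translocase itself, had a log2 fold change of -0.29 (SE 0.10, adjusted p = 0.10) and stood just outside the threshold, and its partner Timm29 had -0.18 (SE 0.10, adjusted p = 0.26). Among the 5 genes of TIM23, the channel gene Timm23 had -0.29 (SE 0.11, adjusted p = 0.11), and 53.3% of its words are shared with other transcripts. Timm17a and Timm17b, the alternative partners of Timm23, had -0.13 and -0.12 (SE 0.09 and 0.11). Timm21, which links TIM23 to TOM and the respiratory chain, had -0.18 (SE 0.17). Timm50, the receptor that takes over presequences, was at 48.8, 43.9 and 44.8 CPM at 6 months and at 52.6, 42.8 and 38.1 CPM at 24 months. The old mice surrounded the young ones on both sides, and the value of -0.04 (SE 0.13) turned to 0.16 with library totals only. Members just inside and just outside the threshold were thus Hspe1 (adjusted p = 0.092) and Timm22 (adjusted p = 0.10), which had almost the same fold change.

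In the PAM motor, 1 of 5 genes fell. Hspa9, the matrix Hsp70, lies at chr18:34937414-34954357 on the minus strand and was at 231, 223 and 201 CPM at 6 months and at 140, 181 and 186 CPM at 24 months. The ages did not overlap, and mouse 2 was below the other old mice. It fell by 22.7% (log2 fold change -0.37, SE 0.12, adjusted p = 0.083), or -0.23 relative to expressed genes. Without mouse 2 the value was -0.24, and with library totals only, on all mice, it was -0.18 (adjusted p = 0.29). Mouse 2 had the lowest CPM sums of neuron, astrocyte, oligodendrocyte, endothelial, red blood cell and striatum markers. It also had the highest sum of microglia markers and the most genes with a count. The part of these in the value was not tested. The other motor subunits did not pass: Grpel1, the nucleotide exchange factor of Hspa9, had -0.21 (SE 0.10, adjusted p = 0.18), the J protein gene Dnajc19 had -0.09 (SE 0.10), its inhibitor Pam16 had -0.12 (SE 0.13) and the tether Timm44 had -0.09 (SE 0.10). Both subunits of MPP missed the threshold as well, with -0.23 for Pmpca (SE 0.11, adjusted p = 0.18) and -0.18 for Pmpcb (SE 0.10, adjusted p = 0.26).

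**Figure D2:**
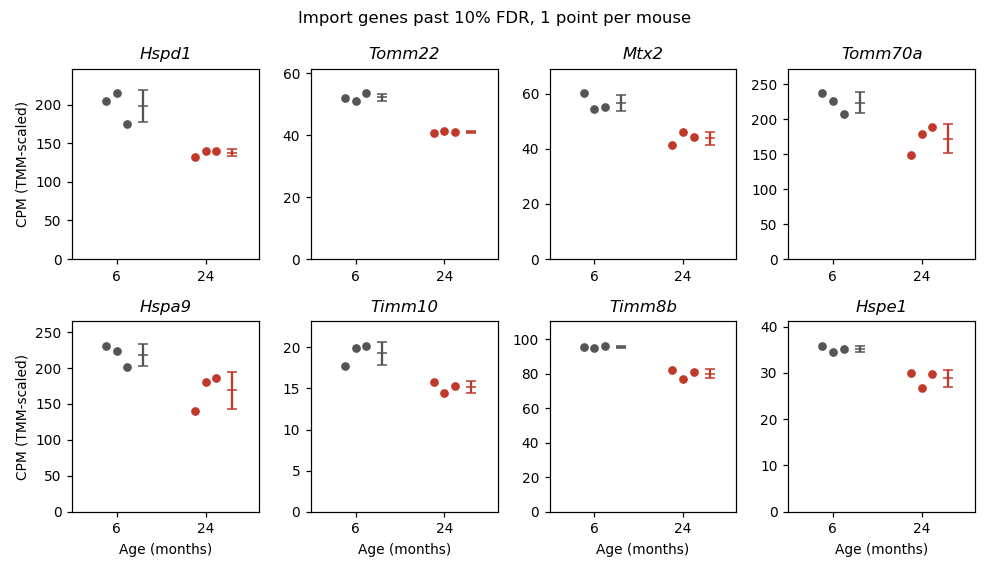
TMM-scaled CPM of the 8 import genes that fell at 10% FDR, with 1 point per mouse, and the mean and SD (n = 3) beside each group. For each gene all 24-month mice lie below all 6-month mice, and mouse 2 (the first red point) is the lowest old mouse for Hspd1, Tomm22, Mtx2, Tomm70a and Hspa9.

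Under TMM with the filter of 10 counts, all 36 members above 1 CPM had a fitted value under 0 (-0.52 to -0.03, median -0.19). So did 70.0% of all genes above 1 CPM. With library totals only, 18 of 36 members did and their median was 0.0029. TMM after the stricter filter filterByExpr gave the 36 members -0.41 to 0.087, with a median of -0.075. The direction common to all 36 thus depended on the filter as well as on the scaling. Relative to the median of genes above 1 CPM, the median of the 38 tested members was -0.04 under both scalings. Under TMM this relative median was 0.01 without mouse 10, and -0.06 to -0.03 without any other mouse. By role the median was -0.41 for the chaperonin, -0.23 for the small TIM chaperones and for TIM22, -0.20 for MPP, -0.17 for TOM, -0.16 for SAM, -0.13 for TIM23 and -0.12 for PAM. The CPM of the ages did not overlap for 19 tested members, all lower at 24 months (52.8% of those above 1 CPM, beside 32.5% of all genes above 1 CPM and 16.3% of all genes tested, while 20.0% of all genes were higher). In TPM, which uses no TMM factor, 10 tested members were lower without overlap (beside 8.65% of all genes and 17.3% of those above 1 CPM), namely the 8 that fell, Timm22 and Timm23. The tested members that were higher without overlap in TPM were the main row of Timm10b and the few-count Tomm20l (beside 25.8% of all genes), and the untested Timm8a2, given above by its counts, was also higher without overlap. The summed TMM-scaled CPM of the neuron markers was also lower at 24 months, as given above, and 3 of these 9 markers fell (Tubb3, Syt1 and Camk2a). In TPM the sums of these markers overlapped, with 5781.5 to 6347.5 at 6 months and 4701 to 5841.1 at 24 months. With library totals only, 0 of the markers were called lower and their median log2 fold change was -0.09. Their part in the values of the members was not tested.

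**Figure D3:**
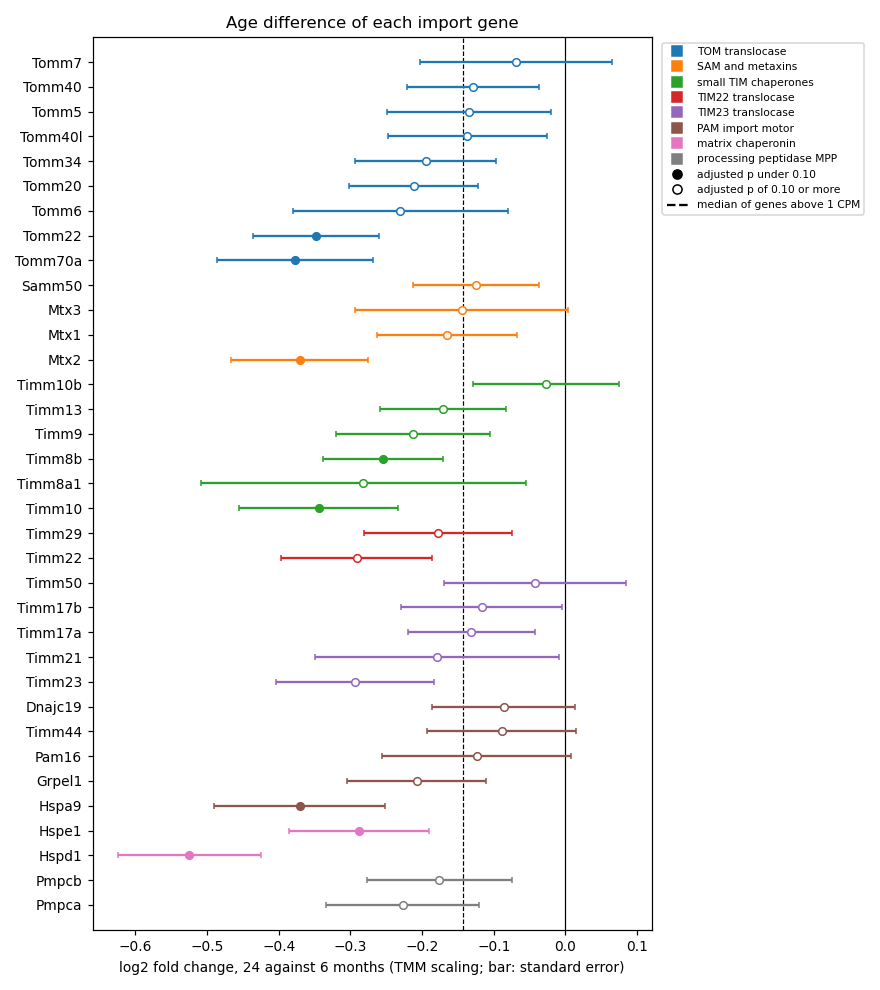
Log2 fold change of 35 import genes (24 against 6 months, TMM scaling) with its standard error, by complex. Filled points passed 10% FDR. All points lie left of 0, around the dashed median of genes above 1 CPM at -0.14, and Hspd1 at -0.52 lies farthest from it.

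**Figure D4:**
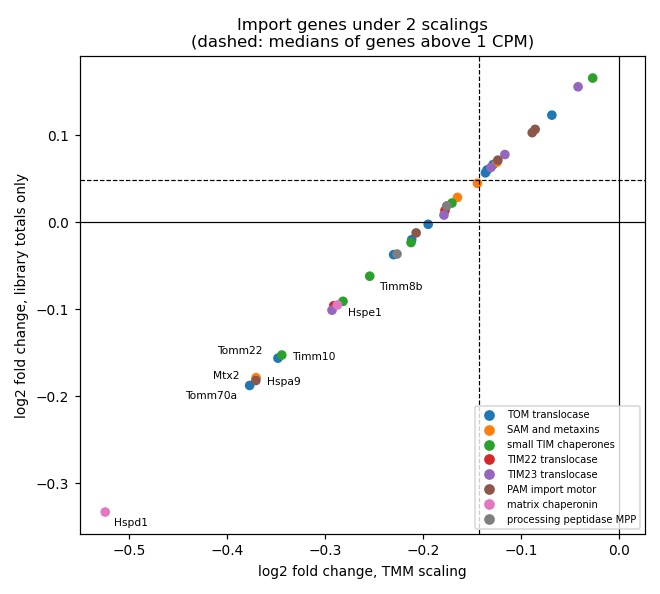
Log2 fold change of the same 35 genes with TMM scaling (x axis) and with library totals only (y axis), coloured by complex, with the medians of genes above 1 CPM dashed. The points form a line, so the scaling moves these genes by nearly the same amount. Hspd1 is below 0 on both axes, and genes such as Timm10b and Timm50 are below 0 on the x axis and above 0 on the y axis.

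Ratios of 2 genes within a library do not depend on the scaling between libraries. Of 9 pairs chosen, 8 had enough counts. The channel partners Timm17a and Timm17b stood at a TPM ratio of 3.41 at 6 months and 3.39 at 24 months, Tomm40 and Tomm40l at 7.60 and 7.63, and Timm8a1 and Timm8b at 0.0046 at both ages. The ages overlapped for these and for Pmpca to Pmpcb (3.87 and 3.72) and Hspd1 to Hspa9 (1.48 and 1.34, exact permutation p = 0.3). The ratio of Grpel1 to its relative Grpel2 was 4.27, 3.92 and 4.87 in the young mice and 5.79, 5.14 and 5.12 in the old mice. It was the only one of the 8 pairs whose ages did not overlap (difference of 0.30 on the log2 scale, two-sided exact permutation p = 0.1, below which 3 mice per age cannot go, and 0.53 after adjustment over the 8 pairs). The ratio of the J protein genes Dnajc19 to Dnajc15 was 0.93 at 6 months and 1.10 at 24 months and overlapped (exact permutation p = 0.2).

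Other genes of the same route, from lists that hold no member, were read in the same fit. For comparison, 17.3% of all genes above 1 CPM fell. Of 16 genes for relay, insertion and presequence removal, 5 fell and 0 rose (median log2 fold change -0.25, and -0.05 with library totals only, where 1 passed). They included Grpel2 (-0.51, adjusted p = 0.052), Dnajc15 (-0.33), Aifm1, whose product helps import into the space between the membranes (-0.38), and Mtch2, an insertase of the outer membrane (-0.32). Of 9 genes of the cristae junction, 2 fell, the MICOS core gene Immt (-0.35) and the inner membrane fusion gene Opa1 (-0.46). Of 15 matrix chaperones and proteases, 3 fell, namely the protease gene Afg3l2 (-0.35), the Hsp40 gene Dnaja3 (-0.32) and the Hsp90 gene Trap1 (-0.27). Medians were -0.14 in both lists, close to that of expressed genes, and 0.05 with library totals only.

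Among the chaperones that keep precursors unfolded in the cytosol and hand them to receptors such as Tomm70a, 8 of 11 fell and 0 rose, with a median of -0.36, or -0.21 relative to expressed genes. With library totals only the median was -0.16, 9 of 11 were below 0 and 1 passed. Leaving out mouse 10, 11, 2 or 4 left 0 calls, leaving out mouse 17 left 4 and leaving out mouse 5 left 6. Hspa8, the constitutive Hsp70, was at 1337, 1365 and 1177 CPM at 6 months and at 953, 953 and 915 CPM at 24 months, without overlap (log2 fold change -0.46, SE 0.09, adjusted p = 0.052). Its J protein genes Dnaja2 (-0.36) and Dnaja1 (-0.38) and the exchange factor gene Hspa4 (-0.54) fell too. Of 11 tested genes of the mitochondrial stress response, 4 fell and 0 rose. These were Asns (-0.46), the asparagine synthetase gene, Ddit3 (-0.36), Chchd2 (-0.27) and Chchd10 (-0.26). Their median went from -0.27 to -0.08 with library totals only, where 0 passed. Of 78 nuclear genes for oxidative phosphorylation subunits, which are cargo of the import machinery, 12 fell and 0 rose, and their median of -0.15 was -0.01 relative to expressed genes (0.04 with library totals only). In each of these lists other than the cytosolic chaperones, leaving out mouse 10, 11, 2 or 4 left 0 calls and leaving out mouse 17 left 1 or 2.

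**Figure D5:**
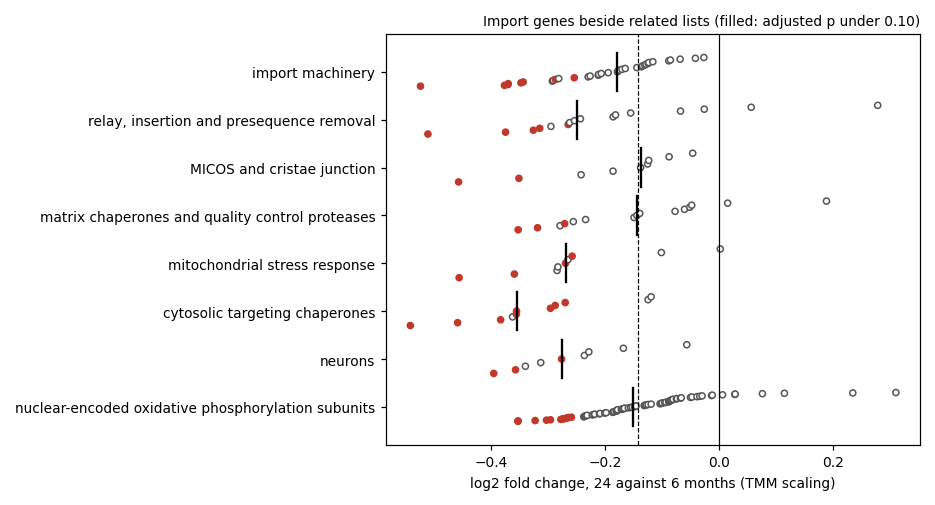
Log2 fold changes (24 against 6 months, TMM scaling) of genes above 1 CPM in the import machinery and in lists of related genes and neuron markers, with 1 point per gene, filled where 10% FDR was passed, and the list's median as a bar. The dashed line is the median of genes above 1 CPM. The cytosolic chaperones have a median of -0.36, while the oxidative phosphorylation subunits are centred on the dashed line.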

How the data were processed

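Cortex RNA of 6 mice was sequenced as single-end reads of 75 bases. The authors trimmed the reads (Trim Galore 0.6.4), mapped them to GRCm38 (GENCODE vM23) with STAR 2.7.3a, counted them on exons with featureCounts (Subread 2.0.0, mapping quality of at least 15) and deposited counts and TPM values. The deposited counts were whole numbers (100%). The stated options split reads with several positions but also drop reads of mapping quality under 15. How many reads with several positions this cut-off removed was not tested. Counts of members with near-identical copies are therefore uncertain. No strand option is among the stated ones, so reads were counted at the default without strand, and overlapping genes on opposite strands may share reads. Each mouse's TPM was computed by the authors from counts and exonic length.

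The quasi-likelihood test of edgeR 4.0.16 (R 4.3.3, TMM, no covariates) was run on genes with a summed count of 10 or more, with Benjamini-Hochberg adjustment over all genes. The exact and likelihood ratio tests, DESeq2 1.42.0, other scalings and filters and leaving out each mouse were alternatives. Positions, exons and shared words (69 bases) are from GENCODE vM21. Python 3.11.15 with scipy 1.17.1 was used. The members and lists were chosen with earlier results of these data known. Values per mouse are given for members past 10% FDR, the 3 with the lowest and the 3 with the highest fitted value among members of at least 1 TPM, the 3 of highest TPM and low members. Replicates are separate mice.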

Additional observations from a re-analysis of the deposited data

How the results depend on the processing

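No paired analysis was possible because the ages share no replicate numbers. The median log2 fold change of the members was 0.0108 with library totals only and -0.0754 with edgeR's filterByExpr, a fit that also used TMM. Members called lower at 10% FDR, 8 as reported, were 1 with library totals only, 1 with filterByExpr, 3 with a minimum of 1 count, 5 with the likelihood ratio test, 5 with the exact test, 4 with DESeq2, and 0 to 9 with 1 mouse left out. At 1% FDR the likelihood ratio and exact tests each called 1. Members lower at unadjusted p under 0.05, 11 as reported, were 1 with library totals only, 4 with filterByExpr, and 3 to 13 with 1 mouse left out. Timm10b turned to 0.17 with library totals only, 0.0868 with filterByExpr and 0.010 with a minimum of 1 count, and leaving out 1 mouse gave -0.0480 to 0.0066. Timm50 turned to 0.16 with library totals only and 0.0751 with filterByExpr, and leaving out 1 mouse gave -0.170 to 0.0630. Tomm7 turned to 0.12 and 0.0434 in these fits, and leaving out 1 mouse gave -0.200 to 0.0467. The members that fell kept a negative value in every alternative run. The causes were not tested, apart from the scaling, which moves all genes together. With 3 mice per age the exact test of a ratio cannot go below p = 0.1.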
